A study of Mus musculus with 8 samples.

Results

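The let-7 family without let-7e comprised 9 mouse miRNAs, let-7a, let-7b, let-7c, let-7d, let-7f, let-7g, let-7i, let-7j and miR-98, chosen by name. They took up 18 of the 452 mature miRNA arms in a table of CPM (counts of each arm divided by the library total and rescaled). In a table read as RPKM (reads scaled to the length of the hairpin and to a fixed library total), 8 of the 9 members were listed, as 9 of 371 hairpin genes, with no row for let-7j. Small RNA came from bone marrow-derived macrophages, grown for 3 days with CMG14-12 supernatant, which supplied the growth factor M-CSF at the equivalent of 20 ng/ml. All mice were of a C57BL/6/129 mix in which C57BL/6 made up over 90%. The groups were knockout macrophages with TNF, unstimulated knockout macrophages, wild-type macrophages with TNF and unstimulated wild-type macrophages, with 2 libraries in each. TNF, an inflammatory cytokine, was given for 24 hours. The knockout (KO) carried Rbpjf/f; LysM Cre, in which a Cre recombinase driven by the lysozyme M promoter deletes floxed Rbpj in myeloid cells. RBP-J is the DNA-binding partner of Notch receptors. The deletion depends on Cre activity in each cell, and the miRNA tables hold no Rbpj transcript by which to measure it. Each table held 1 library of each group, and nothing in the labels said whether the libraries of a group came from separate animals, so the spread between them may be technical.

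Let-7 miRNAs are cut from hairpin precursors by Drosha and Dicer, and the arm loaded into Argonaute pairs with target mRNAs mainly through its seed, the second to the eighth base. The RNA-binding protein LIN28 blocks let-7 maturation in stem cells, and mature let-7 accumulates as cells differentiate, where it represses growth regulators such as Hmga2. In immune cells, let-7 miRNAs are known as regulators of inflammatory genes, among them the cytokine gene IL6 for let-7a in human cells and the receptor gene TLR4 for let-7i in human cholangiocytes.

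The mature sequences are shown because they differ at few positions, so that the tables may assign one read to different members. The guide arms (5p) are printed from RefSeq (GRCm38.p6), 5′ to 3′, with the seed in capitals; the other arm of a hairpin, the passenger (3p), is described further on.
let-7a-5p: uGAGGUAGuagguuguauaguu
let-7b-5p: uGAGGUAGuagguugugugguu
let-7c-5p: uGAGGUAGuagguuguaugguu
let-7d-5p: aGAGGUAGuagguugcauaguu
let-7f-5p: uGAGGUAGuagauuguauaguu
let-7g-5p: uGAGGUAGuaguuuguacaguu
let-7i-5p: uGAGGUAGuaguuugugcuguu
miR-98-5p: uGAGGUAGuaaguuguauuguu
let-7j: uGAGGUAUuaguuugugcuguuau
let-7e-5p: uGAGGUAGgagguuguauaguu
The 8 members other than let-7j, and let-7e, share the seed GAGGUAG. Counted from 1 at the 5′ end, let-7c differed from let-7a by A19G, let-7f by G12A, let-7b by A17G and A19G, and let-7d by U1A and U16C. For let-7g the substitutions were G12U and U18C, for let-7i G12U, A17G, U18C and A19U, and for miR-98 G11A and A19U. Relative to let-7i, let-7j carried G8U within the seed and was longer, at 24 bases against 22. Let-7b and let-7c differ from each other at 1 position.

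The annotation (GENCODE M21, GRCm38) holds 12 hairpin genes of these members, several of them side by side on one strand. Mirlet7a-1 (chr13:48538179-48538272), Mirlet7f-1 (chr13:48537829-48537917) and Mirlet7d (chr13:48536012-48536114) lie on the minus strand in exons of the lincRNA gene 6720427I07Rik. Mirlet7c-2 (chr15:85706603-85706697) and Mirlet7b (chr15:85707319-85707403) lie on the plus strand in exons of the noncoding gene Lncppara. Mirlet7f-2 (chrX:151912346-151912428) and Mir98 (chrX:151913214-151913321) lie on the plus strand in an intron of Huwe1, which encodes a ubiquitin ligase. Mirlet7c-1 (chr16:77599657-77599750, plus strand) lies in an intron of the miRNA host gene Mir99ahg, Mirlet7g (chr9:106178840-106178927, plus strand) in an intron of Wdr82, a gene for a subunit of histone methyltransferase complexes, and Mirlet7i (chr10:122985640-122985724, minus strand) in an exon of D630033A02Rik, annotated as a transcribed processed pseudogene. Mir7j, the hairpin gene of let-7j (chr3:140028249-140028370, plus strand), overlaps no other gene. Mirlet7a-2 (chr9:41536716-41536811) and Mirlet7f-1 were not analysed here in the RPKM table.

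The read total by which a library was scaled was worked out from the steps of the values. It was 321327 to 848652 reads per library in the CPM table and about 13574377 to 21712254 in the RPKM table. These totals may count different kinds of reads, so they need not be sequencing depth. Listed miRNAs made up nearly all of the total of each CPM library but 44.6% to 65.7% of that of each RPKM library. A change in that share moves all members of an RPKM library together. The tables stand in different units and may divide near-identical sequences differently, and levels are compared only within one. The CPM library of unstimulated wild-type cells stood apart: over 95 abundant miRNAs, the SD of its log2 ratio to the other CPM libraries was 1.13, against 0.743 to 0.806 for each of the other CPM libraries. In the RPKM table this SD was 0.396 to 0.593. The myeloid marker miRNAs (miR-21a, miR-146a, miR-142a, miR-223 and miR-155, 5 of 5 listed) summed to 91415 to 117407 CPM over the 4 CPM libraries. Most of that sum was miR-21a in each library, at 48455.3 to 92849.6 CPM. MiR-142a had 10503.7 to 14314.5 CPM, miR-223 had 988.63 to 4522.31 CPM and miR-155 had 155.75 to 1074.65 CPM. MiR-146a had 27034.8 CPM in unstimulated wild-type cells and 10341.1 to 13717 CPM elsewhere. In unstimulated wild-type cells miR-21a was at its lowest and miR-146a at its highest, so the sum covers opposite differences.

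Let-7f, which in mouse macrophages has been described as a repressor of the NF-kB inhibitor gene Tnfaip3, was the most abundant member in both tables. Let-7f-5p had 99536 CPM in KO cells with TNF, 111129 CPM in unstimulated KO cells, 101037 CPM in wild-type cells with TNF and 72779 CPM in unstimulated wild-type cells. Mirlet7f-2 had 158178, 130508, 148259 and 112904 RPKM in the same order of groups. Unstimulated wild-type cells were lowest in both tables, while the highest group differed, unstimulated KO cells in CPM and KO cells with TNF in RPKM. By mean level let-7f ranked 2 of 329 miRNAs in the CPM table and 9 of 350 in the RPKM table.

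Let-7a, let-7c and let-7i followed in the CPM table. Let-7a-5p had 34940 CPM in KO cells with TNF, 45249 CPM in unstimulated KO cells, 29145 CPM in wild-type cells with TNF and 20717 CPM in unstimulated wild-type cells. Let-7c-5p, a member described as favouring alternative activation in mouse macrophages, had 19128, 42001, 19509 and 16282 CPM in the same order. Let-7i-5p had 22953, 21754, 26176 and 16970 CPM. Both KO libraries were above both wild-type libraries for let-7a, whereas for let-7c the unstimulated KO library stood above the other 3, and for let-7i the wild-type library with TNF was highest.

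In the RPKM table let-7i came next after let-7f. Mirlet7i had 129272 RPKM in KO cells with TNF, 78005 RPKM in unstimulated KO cells, 133299 RPKM in wild-type cells with TNF and 82693 RPKM in unstimulated wild-type cells. Both TNF libraries were well above both unstimulated ones. Mirlet7a-1, in contrast, had only 447, 562, 581 and 390 RPKM in the same order, so let-7a ranked 108 of 350 miRNAs there and 9 of 329 in the CPM table. The copies of let-7c were Mirlet7c-1, at 11895, 7837, 14036 and 7580 RPKM, and Mirlet7c-2, at 2412, 2361, 3190 and 2125 RPKM. Wild-type cells with TNF were highest for both copies, and let-7c had its peak in unstimulated KO cells only in the CPM table.

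Let-7d, described as a repressor of Hmga2 in human lung cells, had intermediate levels. Let-7d-5p had 13703 CPM in KO cells with TNF, 17330 CPM in unstimulated KO cells, 11095 CPM in wild-type cells with TNF and 9090 CPM in unstimulated wild-type cells. Mirlet7d had 32759, 28053, 29086 and 23427 RPKM in the same order. Unstimulated wild-type cells were lowest in both tables. Let-7g had 3544, 3543, 3386 and 2648 CPM as let-7g-5p. Mirlet7g had 26203, 30201, 25764 and 22987 RPKM. The groups other than unstimulated wild type lay close together for let-7g in CPM.

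MiR-98, described as a repressor of Il10 in mouse macrophages, had 2744 CPM as miR-98-5p in KO cells with TNF, 2498 CPM in unstimulated KO cells, 1988 CPM in wild-type cells with TNF and 1419 CPM in unstimulated wild-type cells. Mir98 had 10247, 7639, 7678 and 5675 RPKM in the same order. It was the one tested member in which KO cells were higher under each treatment in both tables and TNF-treated cells were higher in each genotype in both tables. Let-7j, listed only in CPM, had 3363, 3472, 3205 and 2347 CPM and ranked 39 of 329.

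Let-7b was the tested member whose tables differed most in the TNF difference, in each genotype. Let-7b-5p had 1328 CPM in KO cells with TNF, 5086 CPM in unstimulated KO cells, 1494 CPM in wild-type cells with TNF and 5608 CPM in unstimulated wild-type cells. Both TNF libraries lay well below both unstimulated libraries in that table. Mirlet7b had 1498, 1552, 1945 and 1349 RPKM in the same order, a range in which the TNF libraries did not stand together.

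**Figure D1:**
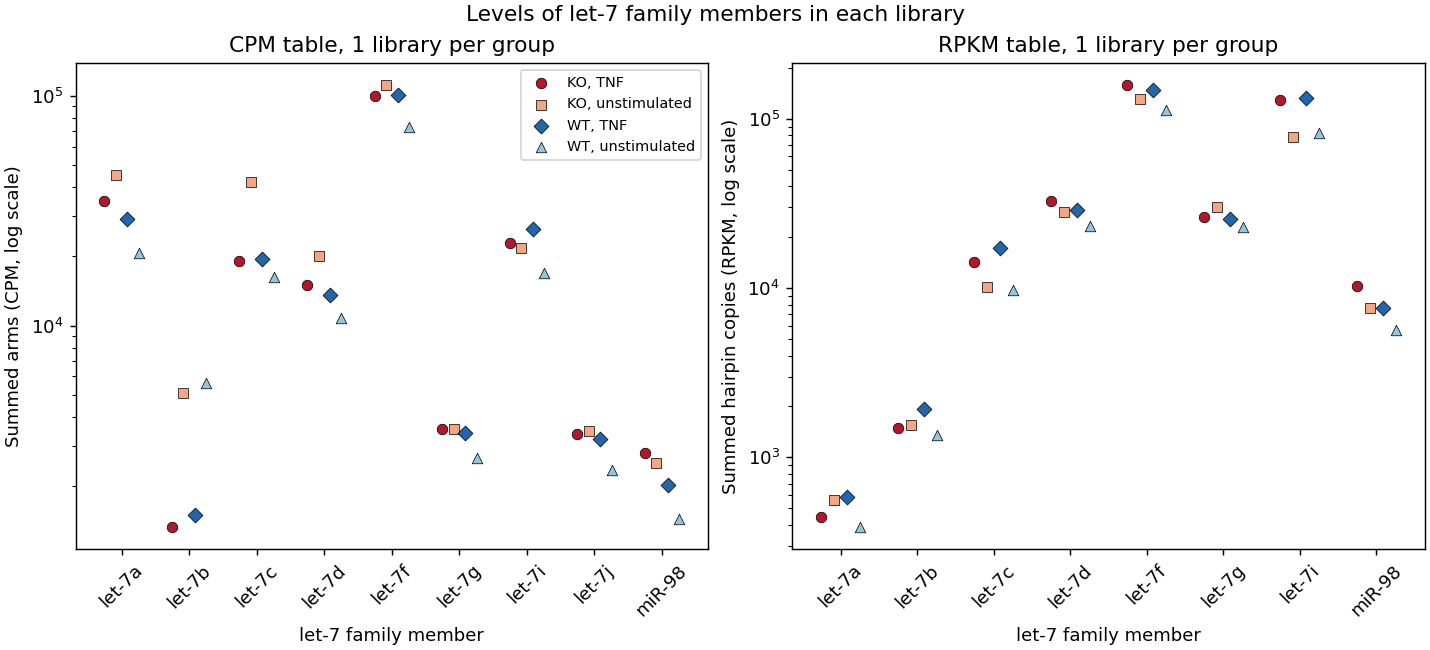
Levels of each let-7 family member in the 4 libraries of the CPM table (left, summed arms) and the 4 libraries of the RPKM table (right, summed hairpin copies), on log axes, with 1 point per library. Let-7f is highest in both panels, let-7a falls to the bottom of the RPKM panel at 390 to 581 RPKM, and let-7b separates by TNF only in the CPM panel.

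Together the members were lowest in unstimulated wild-type cells in both tables. They made up 20.3% of listed miRNA reads in KO cells with TNF (95% Wilson interval 20.2 to 20.4), 25.5% in unstimulated KO cells (25.3 to 25.6), 20.0% in wild-type cells with TNF (19.9 to 20.1) and 15.0% in unstimulated wild-type cells (14.9 to 15.1) in the CPM table. In the RPKM table the shares were 6.10%, 5.60%, 4.81% and 4.50% in the same order, from reads worked back from RPKM. All neighbouring shares in each table's order differ beyond these intervals, which cover counting error only; the reads are not deduplicated, and 1 library per group and table leaves the variation between cultures out. In share, both KO libraries of the RPKM table exceeded both wild-type libraries, whereas in the CPM table KO and wild-type cells with TNF lay close together. Summed RPKM, not divided by the listed reads, gave another order. It was 372912 in KO cells with TNF, 286717 in unstimulated KO cells, 363838 in wild-type cells with TNF and 259129 in unstimulated wild-type cells.

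**Figure D2:**
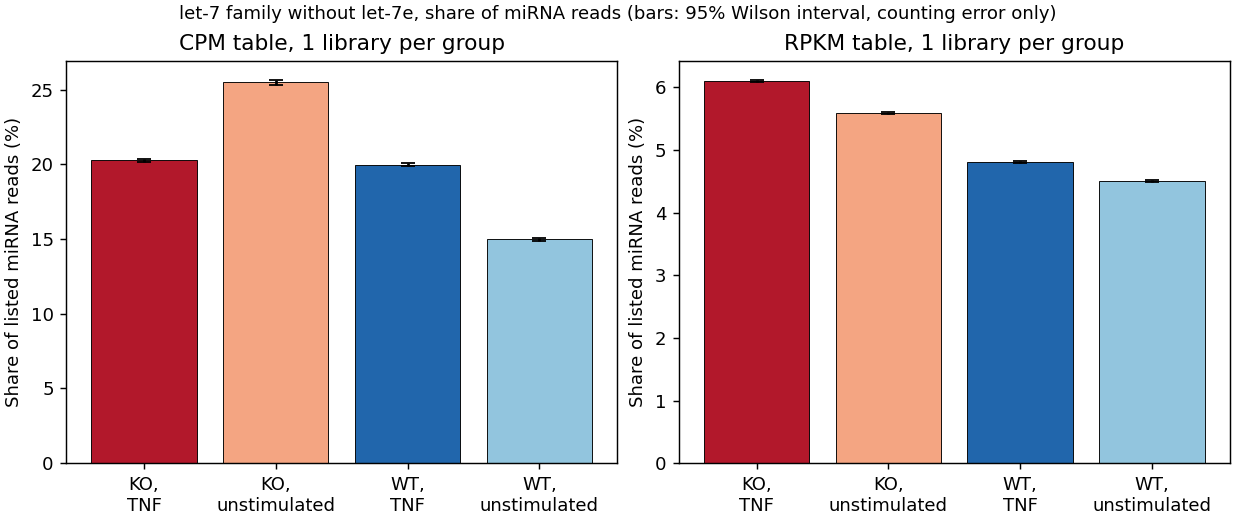
Share of listed miRNA reads that the let-7 family without let-7e took up in each library of the CPM table (left) and the RPKM table (right), with 95% Wilson intervals for counting error. Unstimulated wild-type cells are lowest in both, at 15.0% and 4.50%, and the highest library is unstimulated KO cells at 25.5% (CPM) and KO cells with TNF at 6.10% (RPKM).

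Let-7f was the largest part of that sum in every library. It made up 43.6% to 50.6% of the members' summed CPM and 40.7% to 45.5% of their summed RPKM. Let-7i made up 8.53% to 13.1% of the summed CPM but 27.2% to 36.6% of the summed RPKM. Let-7a made up 13.8% to 17.8% of the summed CPM but only 0.12% to 0.196% of the summed RPKM. The RPKM table held 1 of the 2 let-7a hairpins and 1 of the 2 let-7f hairpins.

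Differences between groups were fitted with limma on log2(value + 1), summing arms or copies of each miRNA, over the 185 miRNAs in both tables that had a mean of at least 5, with each difference taken within a table; log2 differences on this scale understate changes of low miRNAs. A miRNA was called at a Benjamini-Hochberg adjusted p under 0.05. Of the members, 8 entered the fit, and let-7j, without RPKM values, is given as values only. None of the 8 was called in any of the 7 comparisons. The interval behind that is wide: the standard error of a member's log2 difference between 2 groups ran from 0.27 for let-7f to 0.66 for let-7b.

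For TNF in wild-type cells, 7 of 8 members were higher with TNF in both tables, against 24.3% of all 185 miRNAs, and let-7b was the exception. None of these differences passed the test, in which 0% of all miRNAs were called; 12 miRNAs had an unadjusted p under 0.05, and edgeR and DESeq2 on recovered reads each called 0. Of the 7 members fitted as higher, let-7i had the largest difference, 0.66 ± 0.31 (log2, SE; 0.63 in CPM and 0.69 in RPKM), with a limma adjusted p of 0.648. Let-7b had -0.69 ± 0.66, made up of -1.91 in CPM and 0.53 in RPKM, with an adjusted p of 0.797. The median over members was 0.45, against -0.08 over all miRNAs. The tables' own medians lay far apart, at -0.61 in CPM and 0.37 in RPKM, and only 5 of 8 members lay above the median of each table in both, against 24.9% of all miRNAs. Summed over the family, the difference was 0.42 in CPM and 0.49 in RPKM (log2), but as a share of listed miRNAs the RPKM difference was 0.09.

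For TNF in KO cells the members split. Let-7i and miR-98 were higher with TNF in both tables, 2 of 8 members against 21.1% of all miRNAs, with fitted log2 differences of 0.40 ± 0.31 and 0.28 ± 0.40. Let-7a and let-7b were lower with TNF in both, also 2 of 8, against 25.4% of all miRNAs, at -0.35 ± 0.42 and -0.99 ± 0.66 (SE). For let-7b this was -1.94 in CPM but -0.05 in RPKM, and leaving out 1 library moved the fitted value between -1.65 and -0.34. These shares are near the background. The limma adjusted p of members was 0.853 or higher, with 0% of all miRNAs called by limma and 18 at an unadjusted p under 0.05; edgeR called 0 and DESeq2 called 4, none of them a member. The summed family differed by -0.33 in CPM and 0.38 in RPKM, so the tables gave opposite directions. The number of members fitted as higher with TNF was 3 as deposited, 2 when libraries were rescaled to their listed miRNAs, 5 under median-of-ratios scaling and 4 under TMM.

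For KO against wild type without stimulation, 6 of 8 members were higher in KO cells in both tables, against 20% of all miRNAs. Fitted log2 differences were 0.83 ± 0.42 for let-7a, 0.72 ± 0.46 for let-7c, 0.62 ± 0.40 for miR-98 and 0.57 ± 0.34 for let-7d (SE). For let-7c nearly all of it came from the CPM table, with 1.36 there and 0.07 in RPKM, and the fitted value was -0.08 without the CPM library of unstimulated KO cells. The exceptions were let-7b, lower by 0.14 in CPM, and let-7i, lower by 0.08 in RPKM. All 8 members lay above the median of each table in both, against 30.3% of all miRNAs. Let-7i exceeded the RPKM median by only 0.0006, which is at the median, and let-7b exceeded the CPM median by 0.09. All 8 were fitted as higher in KO cells as deposited and under the 3 other scalings, but leaving out 1 library gave values down to -0.80 for let-7b, whose main value was 0.03 ± 0.66, and down to -0.13 for let-7i, whose main value was 0.14 ± 0.31 (SE). No member passed, at limma adjusted p of 0.831 to 0.983; 0% of all miRNAs were called, 5 had an unadjusted p under 0.05, all lower in KO cells, and edgeR and DESeq2 called 0. The median over members was 0.49, against -0.23 over all miRNAs. By table the median over members was 0.71 in CPM and 0.23 in RPKM, so the tables differed in size beyond let-7c. Summed over the family, the difference was 0.77 in CPM and 0.15 in RPKM (log2). As a share of listed miRNAs it was 0.77 in CPM and 0.33 in RPKM.

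The preceding comparison and that of TNF in wild-type cells share the unstimulated wild-type libraries, in which every member but let-7b was lowest of the CPM table. In the CPM library of those cells, markers of other cell types were also higher. The lymphoid sum (miR-150 and miR-342, 2 of 2 listed) was 962 CPM in KO cells with TNF, 2962 CPM in unstimulated KO cells, 1364 CPM in wild-type cells with TNF and 7755 CPM in unstimulated wild-type cells. Nearly all of it was miR-342, at 7718 CPM in unstimulated wild-type cells, where miR-150 was at 37.35 CPM. Over the CPM libraries miR-150 ran from 1.18 to 37.35 CPM. The erythroid sum (1 of 3 listed) was miR-486a alone, at 3302 CPM in unstimulated wild-type cells and 1019 to 1354 CPM elsewhere. MiR-451a and miR-144 had no CPM row. The epithelial sum (7 of 7) was 349 CPM in unstimulated wild-type cells against 97.8 to 207 CPM, and muscle markers were at 0 of 3 listed. In the RPKM table the lymphoid sum of unstimulated wild-type cells, 10469, lay inside the range of the others, 7939 to 17756. Their erythroid sum, 1688 RPKM, also lay inside the range of the others, 1036 to 2184 RPKM. Nearly all of it was miR-486a, with miR-451a at 3.59 to 10.3 RPKM and miR-144 at 1.02 to 1.57 RPKM over the libraries. The stromal sum (5 of 5 listed) did vary there, at 12514 RPKM in KO cells with TNF, 6350 in unstimulated KO cells, 55223 in wild-type cells with TNF and 20507 in unstimulated wild-type cells. Most of it was miR-143, at 11410, 3380, 51576 and 16593 RPKM in the same order. MiR-145a, miR-199a and miR-214 were also highest in wild-type cells with TNF. In contrast, miR-10b was lower with TNF in both genotypes, at 753, 2767, 2015 and 3357 RPKM. In the RPKM table alone, members were higher with TNF in wild-type cells in 8 of 8 cases and higher in unstimulated KO cells in 7 of 8. The RPKM median over all 185 miRNAs was itself 0.37 for TNF in wild-type cells, and 6 of 8 members lay above it. For KO without stimulation that median was -0.08, and 8 of 8 members lay above it, let-7i by only 0.0006. The part of other cells in these values was not tested, and fewer cells of a type cannot be told apart from less RNA per cell.

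For KO against wild type with TNF, members lay around 0. They were higher in KO cells in both tables for miR-98, let-7d and let-7g, 3 of 8 against 20% of all miRNAs, with miR-98 at 0.44 ± 0.40 (log2, SE; 0.45 in CPM and 0.42 in RPKM). Let-7b, let-7c and let-7i were lower in both. The tables' own medians over all miRNAs were also below 0, at -0.05 in CPM and -0.18 in RPKM. Only 1 of 8 members, let-7b, lay below the median of each table in both. No member passed, with a limma adjusted p of 1.00 for each; 0% of all miRNAs were called, 4 had an unadjusted p under 0.05, and edgeR and DESeq2 called 0. The split of members fitted as higher and lower in KO cells was 4 to 4 as deposited, 7 to 1 when rescaled to listed miRNAs, 6 to 2 under median-of-ratios scaling and 5 to 3 under TMM. The summed family differed by 0.02 in CPM and 0.04 in RPKM.

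**Figure D3:**
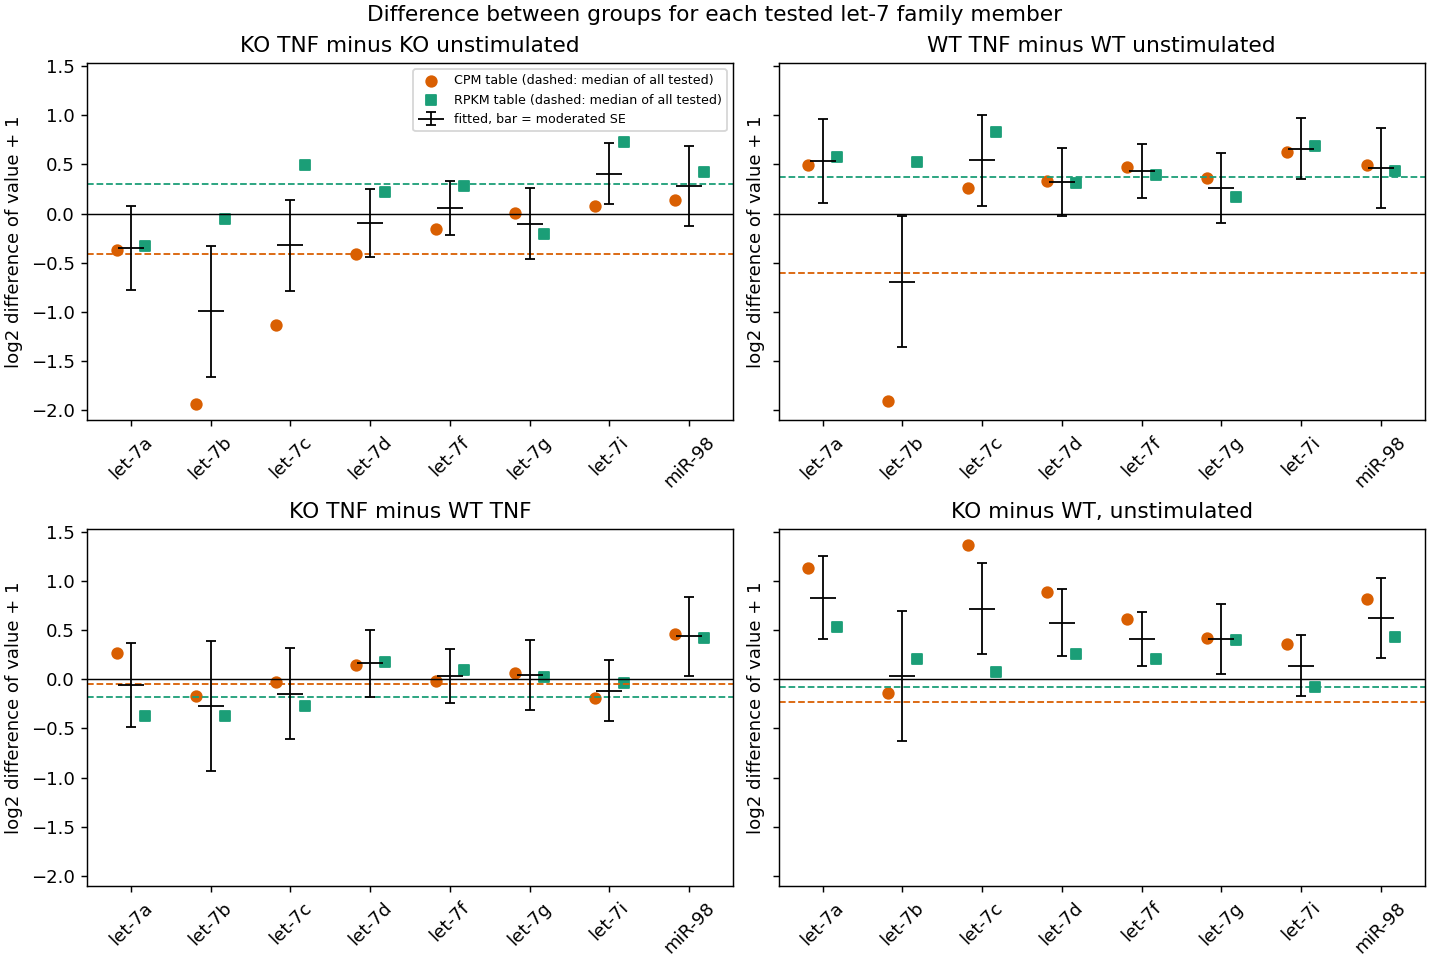
Log2 differences of the 8 tested members for TNF in KO cells, TNF in wild-type cells, KO against wild type with TNF and KO against wild type without stimulation. Circles are the CPM table, squares the RPKM table, black bars the fitted value with its moderated SE, and dashed lines each table's median over 185 miRNAs. For KO against wild type without stimulation all 8 members lie above both medians, let-7i by only 0.0006 in RPKM. With TNF they scatter around 0.

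The interaction asked whether the TNF difference in KO cells departed from that in wild-type cells. Its fitted value was negative for all 8 members, which means a lower TNF difference in KO cells, and for 7 of 8 it was negative in both tables, against 28.6% of all miRNAs; let-7i had 0.04 in the RPKM table. Values ran from -0.89 ± 0.60 for let-7a (-0.87 in CPM and -0.91 in RPKM) to -0.19 ± 0.57 for miR-98 (log2, SE). None passed, at a limma adjusted p of 0.987 for each, with 0% of all miRNAs called, 1 at an unadjusted p under 0.05, and 0 called by edgeR or DESeq2. All 8 signs were negative under the 3 other scalings, but leaving out 1 library gave a positive value for let-7b in 4 fits (up to 0.53) and for let-7i in 1 fit (0.01). The median over members was -0.37, against 0.07 over all miRNAs. The tables' own medians were 0.20 in CPM and -0.14 in RPKM, and only 4 of 8 members lay below the median of each table in both. In RPKM, let-7d (-0.09), let-7f (-0.12), let-7i (0.04) and miR-98 (-0.01) lay above that median. The interaction uses the same unstimulated wild-type libraries as above.

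Averaged over genotypes, let-7i was the member with the lowest p for TNF, at 0.53 ± 0.22 (log2, SE), higher with TNF in both genotypes and both tables, with an unadjusted limma p of 0.0368 and an adjusted p of 0.338. For TNF averaged, limma called 0% of all miRNAs, with 26 at an unadjusted p under 0.05; edgeR called 0 and DESeq2 called 5, none of them a member. Let-7b had -0.84 ± 0.47, made up of -1.92 in CPM and 0.24 in RPKM. For KO averaged over treatments, limma called 0.541% of all miRNAs, 1 of 185, and no member. The largest member value was 0.53 ± 0.29 for miR-98, at an adjusted p of 0.866.

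Ratios within a library do not depend on its scaling. Mirlet7b over Mirlet7c-2, neighbours on chromosome 15, was 0.621 in KO cells with TNF, 0.657 in unstimulated KO cells, 0.610 in wild-type cells with TNF and 0.635 in unstimulated wild-type cells. The highest was 1.08 times the lowest. Let-7b-5p over let-7c-5p in CPM was 0.0694, 0.121, 0.0766 and 0.344 in the same order, a range of 4.96 times, with the 2 TNF libraries lowest. Let-7c-5p comes from a second hairpin too, Mirlet7c-1, whose ratio to Mirlet7c-2 was 4.93, 3.32, 4.40 and 3.57 in RPKM, higher in both TNF libraries.

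**Figure D4:**
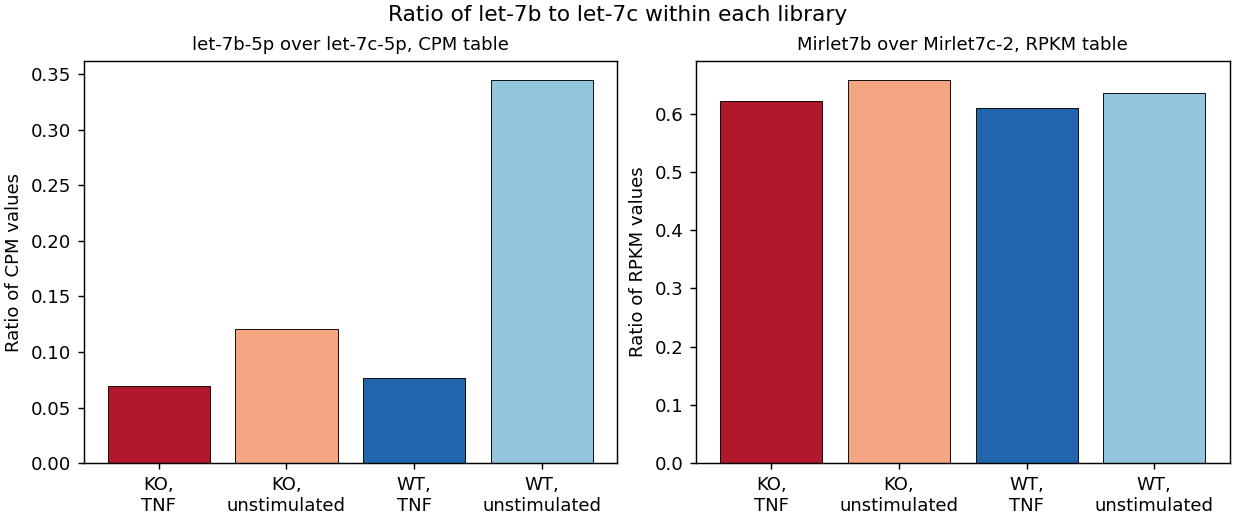
Ratio of let-7b to let-7c within each library, for the mature arms in CPM (left) and for the neighbouring hairpins Mirlet7b and Mirlet7c-2 in RPKM (right); bars start at 0 and each is 1 library. The CPM ratio spans 0.0694 to 0.344 and is highest in unstimulated wild-type cells, and the RPKM ratio stays between 0.610 and 0.657.

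On the X chromosome, Mir98 over Mirlet7f-2 was 0.0648 in KO cells with TNF, 0.0585 in unstimulated KO cells, 0.0518 in wild-type cells with TNF and 0.0503 in unstimulated wild-type cells. MiR-98-5p over let-7f-5p in CPM was 0.0276, 0.0225, 0.0197 and 0.0195. Both ratios ran in the same order over the groups, with both KO libraries above both wild-type libraries, although let-7f-5p also comes from Mirlet7f-1 on chromosome 13. There, let-7a-5p over let-7d-5p was 2.55, 2.61, 2.63 and 2.28 in CPM, while Mirlet7a-1 over Mirlet7d was only 0.0137, 0.0200, 0.0200 and 0.0166 in RPKM. Let-7j over let-7g-5p, members from different chromosomes, was 0.949, 0.980, 0.946 and 0.886 in CPM. Let-7j over let-7i-5p, its nearest sequence, was 0.147, 0.160, 0.122 and 0.138.

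Passenger arms, which are mostly degraded after the guide arm is loaded, were rare except for let-7d. The 3p arm made up 9.06% of let-7d reads in KO cells with TNF (95% Wilson interval 8.58 to 9.57, 1159 3p reads beside 11629 5p reads), 13.6% in unstimulated KO cells (12.8 to 14.4), 18.5% in wild-type cells with TNF (17.6 to 19.3) and 16.1% in unstimulated wild-type cells (14.9 to 17.3). Both KO libraries were lower than both wild-type libraries, beyond counting error, and no replicate of this measure exists. In level, let-7d-3p had 1366, 2727, 2511 and 1743 CPM in the same order. The sequence of this arm shares no seed with the guide arms.
let-7d-3p: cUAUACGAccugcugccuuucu
The 3p arm of miR-98 made up 1.12% to 1.84% of its reads, and those of let-7a, let-7b, let-7c, let-7f and let-7g 0.333% or less. Let-7g-3p had 0 reads in the 3 libraries other than wild-type cells with TNF, which allows shares of up to 0.0997% to 0.353% by a floor of 3 reads and up to 0.128% to 0.449% by the Wilson interval. Let-7a-1-3p and let-7c-2-3p have the same sequence and were listed with the same value under both names, 6.22 to 23.1 CPM. No 3p arm of let-7i was listed.

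**Figure D5:**
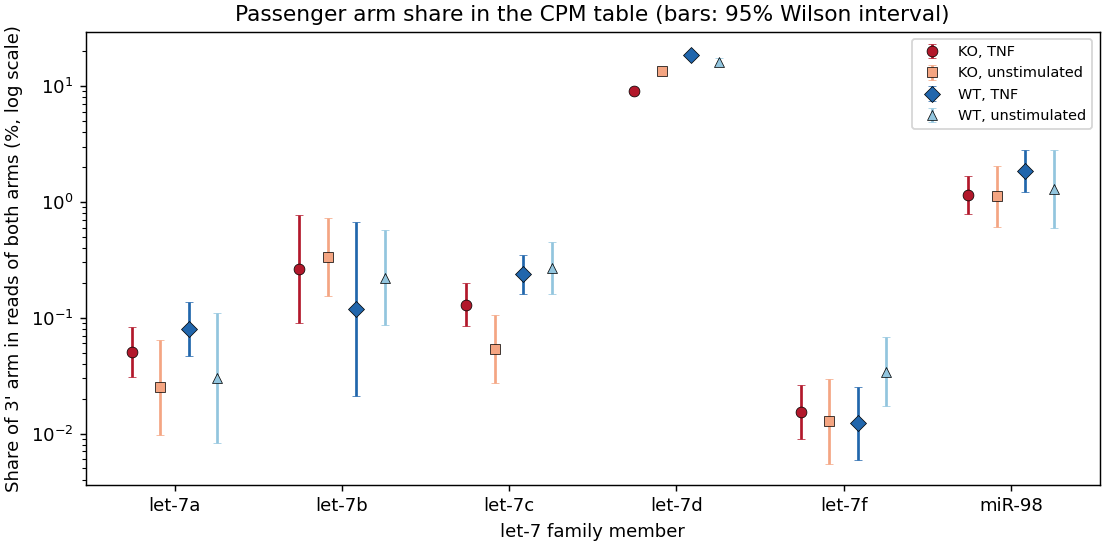
Share of the 3p arm among the reads of both arms for 6 members in the 4 CPM libraries, on a log axis, with 95% Wilson intervals for counting error; let-7g, with 0 reads in 3 libraries, is left out. Let-7d stands at 9.06% to 18.5%, with both KO libraries below both wild-type libraries, and miR-98 at 1.12% to 1.84%.

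Let-7e, which has the family's seed but sits with Mir99b and Mir125a on chromosome 17, is set beside these members. Let-7e-5p had 7055 CPM in KO cells with TNF, 3257 CPM in unstimulated KO cells, 15466 CPM in wild-type cells with TNF and 2891 CPM in unstimulated wild-type cells. Its ratio to let-7a-5p was 0.202, 0.0720, 0.531 and 0.140 in the same order. In CPM its log2 difference for TNF was 1.11 in KO cells and 2.42 in wild-type cells, against -1.94 to 0.14 and -1.91 to 0.63 over the 8 tested members; it had no RPKM row here and no test. Mirlet7c-1 shares Mir99ahg with Mir99a and Mir125b-2. MiR-99a had 471, 583, 526 and 1176 CPM and 9520, 3647, 10813 and 4733 RPKM in the same order of groups. Its fitted log2 difference was 0.02 ± 0.65 for TNF in wild-type cells and -0.69 ± 0.65 for KO without stimulation, neither called (limma adjusted p of 0.991 and 0.855). Its CPM and RPKM values gave opposite directions for TNF.

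The miRNAs whose pattern over the 8 libraries was most like the family's summed level were sought among 87 non-members with a mean of at least 100 in each table, by the root mean square of the log2 difference after centring within each table. MiR-106b (0.145), miR-25 (0.148) and miR-107 (0.194) were nearest, against a median of 0.460 over the 87. MiR-106b had 448, 688, 414 and 405 CPM and 2454, 1664, 2068 and 1775 RPKM in KO cells with TNF, unstimulated KO cells, wild-type cells with TNF and unstimulated wild-type cells. Among the members themselves, let-7f (0.0715) and let-7d (0.0902) lay nearest to the sum they are part of, and let-7b (0.743) farthest.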

How the data were processed

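Both deposited tables have 4 value columns, 1 for each group. The authors' first table holds CPM of mature arms, per the file headers; every listed row reaches 5.34 CPM or more in some library. The other names no unit. Its deposited values were read as RPKM, because value times hairpin length (GENCODE M21, which held 363 of 371 identifiers) gave whole reads for 94.3% to 95.2% of low values at a tolerance of 0.1 reads; CPM gave 100%. CASAVA 1.8.2 (base calling and demultiplexing) is named in the submitters' processing notes; the aligner, counter and genome build are not given in the sources used here. Columns name a group but no replicate, so columns were assigned by group.

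MiRNAs were joined by name (198 in both tables). limma 3.58.1 (lmFit, eBayes with trend, R 4.3.3) was fitted to log2(value + 1) for 4 groups with the table as a block, two-sided, with Benjamini-Hochberg adjustment over 185 miRNAs in each of 7 comparisons. Deviations from group means correlated at 0.752 to 0.917 within a table. Each group mean spans 1 library of each unit, so these deviations hold the difference in units. The correlation therefore cannot show whether cultures were paired. Fits were tested on simulated data. Alternatives were pseudocounts of 0.5 and 5, other filters (none, or a mean of 20 in each table), 3 other scalings, no block, only the top arm, mean of copies, edgeR 4.0.16 and DESeq2 1.42.0 on recovered reads, and each library left out. The nearest-pattern rule named 3 miRNAs. The members, lists and tests were chosen with earlier results of these data known.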

Additional observations from a re-analysis of the deposited data

Results flagged for a closer look

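Let-7a was flagged because its TNF difference ran in opposite directions in the genotypes, in both tables: -0.37 in CPM and -0.33 in RPKM in KO cells, against 0.49 and 0.58 in wild-type cells. The difference between these (KO minus wild type) was -0.89 ± 0.60 (log2, SE), which did not pass (limma adjusted p of 0.987). Let-7c was flagged because KO cells were lower than wild type with TNF in both tables (-0.03 in CPM and -0.27 in RPKM) but higher without stimulation (1.36 and 0.07). The difference between those was -0.87 ± 0.65 and did not pass either (limma adjusted p of 0.987). Without the CPM library of unstimulated KO cells the let-7c value was -0.07, and without the RPKM library of those cells it was -1.66.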

How the results depend on the processing

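No tested member was called under any alternative: of 1120 alternative values over 8 members and 7 comparisons, 0 passed, the lowest adjusted p being 0.0765. The sign differed from the main value in 64, of which 42 left out 1 library; the other 22 were 4 for TNF in KO cells, 9 for KO with TNF, 4 for TNF averaged and 5 for KO averaged, and none for the interaction, TNF in wild-type cells or KO without stimulation. Counts over all 185 miRNAs moved. DESeq2 called 4 for TNF in KO cells, 5 for TNF averaged and 2 for KO averaged; median-of-ratios and TMM scaling each called 1 for TNF averaged. Without the replicate block (the table), KO averaged had 0 calls, and the other 6 comparisons kept their 0. Leaving out 1 library gave 0 to 17 calls for TNF in wild-type cells, 0 to 7 for TNF in KO cells, 0 to 6 for KO without stimulation, 0 to 2 for the interaction, 0 to 26 for TNF averaged and 0 to 5 for KO averaged, the 17 and 26 both without the RPKM library of unstimulated wild-type cells; such fits leave 1 sample of a group, assumed to vary like the others. As a share of listed miRNAs the family's summed log2 difference, averaged over tables, was 0.25 for TNF in wild-type cells, against 0.45 as deposited, and 0.18 for KO with TNF, against 0.03; with let-7e included the last was -0.00056. Rescaling moved the median of all miRNAs by over 0.1, from -0.08 to -0.28 for TNF in wild-type cells when scaled to listed miRNAs, and to 0.12 under TMM. As alternatives chosen after seeing the data, members higher with TNF in wild-type cells numbered 8 in the RPKM table alone, 7 in the CPM table alone and 5 against each table's median. For KO without stimulation they numbered 7, 7 and 8. The median over all miRNAs was 0.37 in RPKM and -0.61 in CPM for TNF in wild-type cells. For KO without stimulation it was -0.08 in RPKM and -0.23 in CPM. Depth limits the rare 3p arms, such as let-7g-3p with 0 reads in 3 libraries, and 2 libraries per group limit every test.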
